A study of Mus musculus with 10 samples.

Results

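Txnip, Arrdc4 and the transcription factors that tie them to glucose (Mlx, Mlxip and Mlxipl) were followed across myotubes that express 3 forms or levels of the nuclear poly(A)-binding protein PABPN1. Txnip and Arrdc4 were chosen by their values in these arrays, because both were lower in myotubes with mutant PABPN1 (D7E) and with little wild type PABPN1 (WTD) than in those with more wild type PABPN1 (WTA), and the 3 regulators were added for their role. The 5 genes had 13 of the 45281 probes of the array: 2 for Txnip, 1 for Arrdc4, 3 for Mlx, 5 for Mlxip and 2 for Mlxipl. Of these 13 probes, 6 passed the filter on dim probes (detection p under 0.05 on at least 2 of 8 arrays), as did 18815 probes in all. The filter keeps a probe that is bright in 1 group only, so a count over the 6 says nothing of the other 7.

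Txnip is an alpha-arrestin that binds thioredoxin and restrains glucose uptake by drawing the glucose transporters GLUT1 and GLUT4 from the cell surface. Arrdc4 is its close relative and acts on glucose uptake in a similar way. Both genes are switched on when glucose metabolites build up: MondoA (gene Mlxip, the main form in muscle) or ChREBP (gene Mlxipl, best known in liver and fat) pairs with Mlx, enters the nucleus and binds carbohydrate response elements, which hold a tandem pair of E-box-like hexamers. Txnip mRNA is therefore widely read as a reporter of glucose sensing, and it is also short-lived.

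The promoters of Txnip and Arrdc4 are shown because both genes are known targets of these factors and had the lowest values relative to control among the members. Each runs from 250 bases before to 50 bases after the annotated transcription start, 5′ to 3′ on the strand of the gene, in RefSeq's GRCm38.p6 annotation: chr3:96557707-96558006 (plus strand) for Txnip and chr7:68749189-68749488 (minus strand) for Arrdc4. Capitals mark the E-box-like hexamers CACGAG and CACGTG and the CCAAT box (ATTGG where it lies on the other strand), the box that NF-Y binds.
Txnip: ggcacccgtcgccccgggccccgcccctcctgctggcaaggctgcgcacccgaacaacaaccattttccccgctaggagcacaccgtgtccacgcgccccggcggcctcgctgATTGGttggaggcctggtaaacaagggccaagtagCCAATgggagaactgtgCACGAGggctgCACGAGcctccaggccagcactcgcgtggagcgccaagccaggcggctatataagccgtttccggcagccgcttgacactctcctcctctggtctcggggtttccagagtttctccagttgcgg
Arrdc4: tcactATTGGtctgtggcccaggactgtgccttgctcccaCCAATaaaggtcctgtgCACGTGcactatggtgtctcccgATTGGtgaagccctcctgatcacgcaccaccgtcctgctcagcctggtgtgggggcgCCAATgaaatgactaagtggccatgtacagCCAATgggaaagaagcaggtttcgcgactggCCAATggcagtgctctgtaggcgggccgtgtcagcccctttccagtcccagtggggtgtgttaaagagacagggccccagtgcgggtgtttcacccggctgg

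The Txnip promoter held a tandem pair of E-box-like hexamers, 2 CACGAG with 5 bases between them, from -85 to -69 relative to the start. CCAAT boxes lay upstream of it at -137 (other strand) and -102. The motif searched, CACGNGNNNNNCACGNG on either strand, was found in 16 of the 32851 promoters of the table, a share of 0.0487%. The Arrdc4 promoter had no match to this motif in this window, though carbohydrate response elements spelled otherwise were not searched. It had the perfect E box CACGTG at -193, found in 7.15% of all promoters. It also had 6 CCAAT boxes, a number reached or passed in 0.0791% of promoters, against 2 for Txnip, reached or passed in 11.7%. These 2 thresholds are the promoters' own counts, so the shares are descriptions only. All 5 genes matched the table. Mlx had CACGTG at -40 and CCAAT boxes at -146 and -55, Mlxip had CCAAT boxes at -246 and -48, and of the 2 listed starts of Mlxipl 1 held CACGTG at -98, CACGAG at -196 and a CCAAT box at -173 and the other held none of these motifs. A match describes the letters only.

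**Figure D1:**
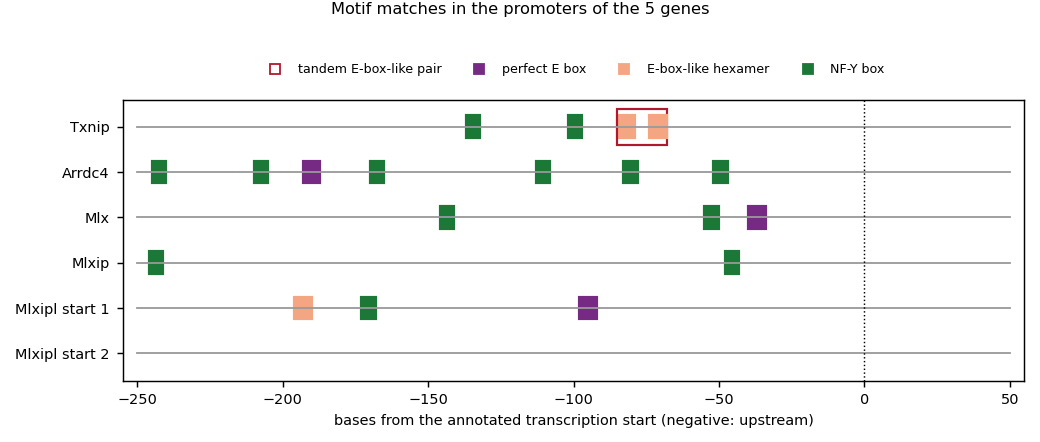
Motif matches on either strand in the annotated promoters of the 5 genes, with bases from the transcription start on the horizontal axis and 1 row per start (Mlxipl has 2). Filled boxes mark the hexamers and the NF-Y (CCAAT) boxes, and the open box marks the tandem pair, which in these rows lies in Txnip alone, from -85 to -69.

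RNA was taken from cultures of the mouse muscle line IM2 after 4 days under fusion conditions and read on Illumina mouse bead arrays. D7E cultures expressed mutant PABPN1-FLAG, whose level the labels describe as similar to that of WTA (3 arrays), WTD cultures expressed wild type PABPN1-FLAG at low level (3 arrays), and WTA cultures, the control, expressed wild type PABPN1-FLAG (2 arrays, each deposited in both raw tables with the same values and used once). FLAG is a short epitope tag, and alanine-expanded PABPN1 causes oculopharyngeal muscular dystrophy. All groups thus carry an introduced PABPN1. The labels name neither the mutation, the promoter, nor whether a group is 1 clone or its arrays come from separate cultures. The p-values therefore rest on array-to-array spread alone, and that spread may be technical.

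Each array detected 13653 to 17565 probes, and its 95th percentile of signal was 6.67 to 8.21 times the median in D7E, 3.20 to 8.37 times in WTD and 5.09 to 6.48 times in WTA. The number of arrays, above all the 2 of WTA, limits the precision of every comparison. The WTD signals stood in another row order and were put back in order through the WTA ranks, so all WTD values rest on that step. Pabpn1 had 1 probe, and no source used here says whether it reads the introduced transcript. It had log2 levels of 9.16, 9.58 and 10.58 in D7E, 10.24, 10.26 and 9.87 in WTD and 9.24 and 9.18 in WTA. The probe was thus highest on average in the group labelled low, though it passed the threshold in neither D7E (0.57 ± 0.32, SE, limma adjusted p = 0.516) nor WTD (0.91 ± 0.32, adjusted p = 0.205) against WTA. Of 12 myotube markers 11 were on the array, and all 11 were detected on every array, with summed linear levels of 132977 to 137818 in D7E, 127542 to 135476 in WTD and 138567 to 144869 in WTA. Of 5 adipocyte markers Fabp4 and Plin1 were detected on no array, and their summed level was 148 to 175 in D7E, 186 to 215 in WTD and 133 to 142 in WTA. One of the 5, the lipase Lpl, was called higher in WTD (0.98 ± 0.19, SE, adjusted p = 0.0257), a call kept under 11 of 19 alternatives and lost under 8: without WTA replicate 1 or 2, WTD replicate 1 or D7E replicate 1, with WTD replicate 2 alone, median centring, no filter, or a fit of the 2 groups only. Its difference was 0.47 at its lowest, with quantile normalization without background correction. The summed level of 5 myoblast and proliferation markers was 114 to 128 in D7E, 134 to 188 in WTD and 157 to 178 in WTA, and Pax7 was detected on none. The 5 fibroblast markers summed to 270 to 430 in D7E, 191 to 306 in WTD and 311 to 430 in WTA, and the 3 immune and endothelial markers on the array to 58.5 to 59.8, 58.7 to 63.7 and 56.0 to 61.2. The part of these differences in the values below was not tested, and in bulk RNA fewer cells of a type and less RNA per cell cannot be told apart.

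Txnip was low on all 6 arrays of D7E and WTD and high on both WTA arrays. Its brighter probe (ILMN_1213609) gave raw signals of 541, 628 and 841 in D7E, 262, 212 and 769 in WTD and 1268 and 1562 in WTA. Both WTA signals thus lay above all D7E and WTD signals before any normalization, while D7E and WTD overlapped. Txnip was picked for being lower than in WTA, as was Arrdc4. The share of all probes that separate in this way was not counted for either. Raw signals also carry the brightness of the array: its 95th percentile was 648, 791 and 635 in D7E, 387, 259 and 769 in WTD and 430 and 537 in WTA. After background correction and quantile normalization of all arrays together, its log2 levels were 8.62, 8.55 and 9.37 in D7E, 8.22, 8.52 and 8.93 in WTD and 10.69 and 10.62 in WTA. The mean was 8.85 ± 0.46 in D7E and 8.56 ± 0.36 in WTD (SD, n = 3 each), against 10.66 ± 0.05 in WTA (SD, n = 2). That is a difference of -1.81 on the log2 scale for D7E (3.51-fold lower) and of -2.10 for WTD (4.30-fold lower). Of the 18815 probes tested, 0 had a lower difference than Txnip in D7E against WTA and 5 had one in WTD against WTA. No test is given for these differences, since Txnip was picked for them; over genes read on their brightest probe, 0.324% were called lower in D7E than in WTA and 0.713% in WTD than in WTA (limma, adjusted p under 0.05).

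The second Txnip probe (ILMN_3112873) showed the same order of groups. Its log2 levels were 6.74, 7.09 and 7.20 in D7E, 6.27, 6.80 and 6.83 in WTD and 8.77 and 8.24 in WTA. Its raw signals ran from 200 to 270 in D7E, 114 to 232 in WTD and 357 to 391 in WTA, again with WTA apart from the others. The difference was -1.50 for D7E and -1.87 for WTD. Among these 8 arrays the brighter probe was highest within D7E on replicate 3 and within WTD on replicate 3, and so was the second probe.

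Arrdc4, read by 1 probe, was low on the same 6 arrays. Its log2 levels were 5.88, 6.13 and 6.13 in D7E, 6.17, 5.87 and 6.38 in WTD and 7.58 and 7.24 in WTA. The mean was 6.05 ± 0.15 in D7E and 6.14 ± 0.25 in WTD (SD, n = 3 each), against 7.41 ± 0.24 in WTA (SD, n = 2), differences of -1.36 (2.57-fold lower) and -1.27 (2.41-fold lower). Its raw signals were 143 to 173 in D7E, 94.4 to 189 in WTD and 212 to 213 in WTA, without overlap with WTA. Here 15 probes had a lower difference in D7E and 45 in WTD, places that the choice of Arrdc4 for these differences favours. No test is given for them. The size depended on how background was removed: in the authors' normalized values, which keep it, the Arrdc4 difference was -0.81 in D7E and -0.76 in WTD, while that of Txnip was -1.66 and -1.91. Both Txnip and Arrdc4 were above background on all 8 arrays, so none of these values is a bound.

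**Figure D2:**
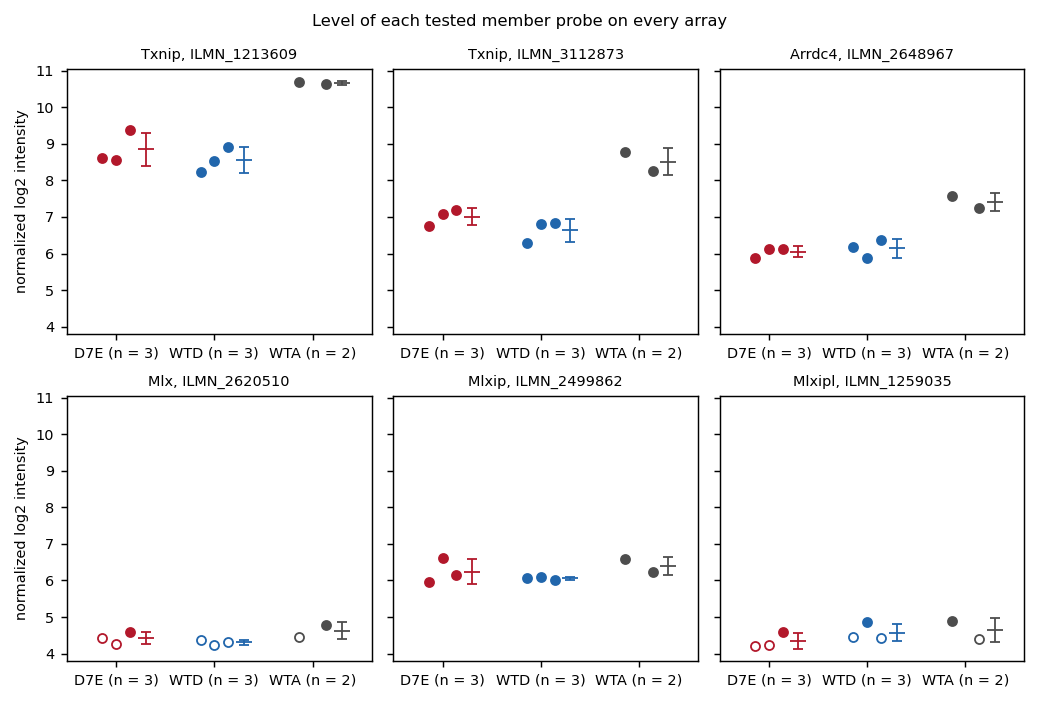
Normalized log2 intensity of the 6 member probes past the filter, 1 panel per probe. Points are arrays (filled where detected, open where not), and the bar to their right is the group mean with its SD (n = 3 for D7E and WTD, n = 2 for WTA). The Txnip and Arrdc4 probes, of genes picked for falling against WTA, lie lower on all D7E and WTD arrays than on both WTA arrays. Those of Mlx, Mlxip and Mlxipl overlap between at least 2 groups.

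The comparison of D7E with WTD, 2 groups that share no arrays, asks whether the mutant and the low level of wild type protein differ in these genes. Txnip and Arrdc4 were not chosen by this difference, but for being low in both groups, which favours a small one. Their tests here are thus not independent of the choice. No member passed the test. The brighter Txnip probe was 0.29 ± 0.23 (SE) higher in D7E, with a 95% interval of -0.21 to 0.80 (limma adjusted p = 0.790), and the second probe was 0.37 ± 0.20 higher (interval -0.07 to 0.82, adjusted p = 0.682). Arrdc4 differed by -0.09 ± 0.17 (interval -0.47 to 0.28, adjusted p = 0.928). In this comparison 5 of 18815 probes were called, a share of 0.0266%, so few genes could be told apart. The levels of D7E and WTD overlapped on all 3 probes. The order of mean Txnip levels was WTD, D7E, WTA and that of Arrdc4 was D7E, WTD, WTA, in which the first 2 of each did not differ beyond the spread. With each array centred on its median in place of quantile normalization, the median of all probes moved by 0.40, and relative to that shift Txnip was 0.61 and Arrdc4 0.02 higher in D7E.

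None of the 3 regulators passed the test. Mlxip, the gene of MondoA, had 1 probe detected on all 8 arrays, ILMN_2499862, for which the annotation names no transcript accession. Its log2 levels were 5.95, 6.61 and 6.15 in D7E, 6.07, 6.08 and 6.01 in WTD and 6.57 and 6.23 in WTA. The groups overlapped for D7E, while all 3 WTD values lay below both WTA values. The share of all probes that separate in this way was not counted, so the separation is a description only. The difference from WTA was -0.17 ± 0.20 in D7E (SE; adjusted p = 0.820) and -0.34 ± 0.20 in WTD (adjusted p = 0.498), and D7E differed from WTD by 0.18 ± 0.18 (adjusted p = 0.848). The intervals against WTA, -0.61 to 0.28 for D7E and -0.79 to 0.10 for WTD, both include 0. The other 4 Mlxip probes were not above background on 7 or more arrays each and give no level, so the probes of this gene disagree on whether it is detected.

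Mlx, the shared partner, passed the filter with 1 of 3 probes, detected on 1 of 3 D7E arrays, 0 of 3 WTD arrays and 1 of 2 WTA arrays. Its log2 levels were 4.41, 4.25 and 4.58 in D7E, 4.36, 4.24 and 4.32 in WTD and 4.46 and 4.79 in WTA. They lie at the level where probes stop being detected, so WTD has only a bound. The difference from WTA was -0.21 ± 0.17 in D7E (adjusted p = 0.704), and none is given for WTD. Mlxipl, the gene of ChREBP, passed with 1 of 2 probes, detected on 1 array of each group. It had 4.20, 4.24 and 4.59 in D7E, 4.45, 4.86 and 4.42 in WTD and 4.88 and 4.41 in WTA. The groups overlapped, with differences from WTA of -0.30 ± 0.21 in D7E (adjusted p = 0.628) and -0.07 ± 0.21 in WTD (adjusted p = 0.925). None of these 3 genes was called in any of the 3 comparisons, nor under any alternative run for them (17 to 19 each), and an mRNA level does not show how much of a factor is in the nucleus.

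The surroundings of the 5 genes were read from 8 pathway lists, each gene on its brightest probe. Over all 10806 genes tested the median difference was -0.00625 in D7E and -0.00352 in WTD against WTA, with 51.0% and 50.6% of genes below 0, and 0.213% and 0.907% of genes were called higher. Of the 83 list genes tested, 1 was called in D7E and 2 in WTD, all lower than in WTA, where 0.324% and 0.713% of all genes were called lower. An unadjusted p under 0.05 was reached by 13.1% of all genes in D7E and 15.1% in WTD against WTA, and by 8.45% in D7E against WTD, and the unadjusted counts given for the lists read against these shares.

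The list of glucose uptake and phosphorylation, which includes the transporters GLUT1 and GLUT4 that the Txnip protein acts on, had 9 tested members. Slc2a1, which encodes GLUT1, the basal glucose transporter, had log2 levels of 8.41, 8.17 and 9.30 in D7E, 8.27, 8.24 and 8.01 in WTD and 9.38 and 9.68 in WTA. Slc2a1 was lower on all arrays of both groups than on either WTA array. The share of all genes that separate in this way was not counted, here or for Pdk1 below. In WTD Slc2a1 fell by 1.36 ± 0.28 (SE; limma adjusted p = 0.0335), a call kept under 7 of 19 alternatives. The call was lost without WTA replicate 1 or 2, any 1 of the WTD arrays or D7E replicate 1. It was also lost in the authors' values, with quantile normalization without background correction, an offset of 50, no filter, median centring or WTD replicate 2 alone. The limma adjusted p ran from 0.00488 to 0.9999 over the alternatives. In D7E Slc2a1 differed by -0.90 ± 0.28 (adjusted p = 0.190). Slc2a4, the insulin-responsive transporter GLUT4, differed by -0.60 in D7E (adjusted p = 0.501) and -0.60 in WTD (adjusted p = 0.452), and Hk1, the hexokinase that traps glucose in the cell, by -0.54 (adjusted p = 0.352) and -0.42 (adjusted p = 0.457). In all, 7 of the 9 genes lay below 0 in D7E (median -0.24) and 9 of 9 in WTD (median -0.25). The tested genes ran from -0.90 to 0.31 in D7E and from -1.36 to -0.05 in WTD, and 2 of 9 had an unadjusted p under 0.05 in each.

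Genes of pyruvate handling, which set whether glucose carbon goes to the mitochondria or to lactate, had 12 tested members, and 10 lay below 0 in each group (median -0.26 in D7E and -0.42 in WTD), 6 of 12 with an unadjusted p under 0.05 in each. Pdk1, a kinase that shuts pyruvate dehydrogenase off, had log2 levels of 5.06, 5.25 and 5.95 in D7E, 5.64, 4.61 and 5.22 in WTD and 6.90 and 7.13 in WTA, with no overlap between WTA and the others. It fell by 1.59 ± 0.30 in D7E (SE; adjusted p = 0.0395). In WTD it fell by 1.86 ± 0.30 (adjusted p = 0.0120). It was detected on 3 of 3 D7E and 2 of 3 WTD arrays. The size depended on the background step: without background correction it was -0.70 in D7E and -0.78 in WTD, and in the authors' values -0.80 and -0.89. The call held under 12 of 19 alternatives in D7E and 15 of 19 in WTD, and was lost in both without WTA replicate 1 or 2, and in D7E also without D7E replicate 1 or 2 (adjusted p from 0.0141 to 0.807 over the alternatives in D7E and from 0.00705 to 0.9999 in WTD). The replicate number as a block also ended the D7E call, and median centring or no filter ended the call in both. No other gene of the list was called: Pdp2, a phosphatase that turns pyruvate dehydrogenase on, differed by -0.57 (adjusted p = 0.258) and -0.88 (adjusted p = 0.0554), Pdha1, a subunit of that enzyme, by -0.60 (adjusted p = 0.211) and -0.77 (adjusted p = 0.0800), Ldha, which makes lactate, by -0.51 (adjusted p = 0.191) and -0.49 (adjusted p = 0.170), and Pdk4, the kinase raised by fasting, by -0.05 (adjusted p = 0.953) and 0.12 (adjusted p = 0.841), in D7E and in WTD. The highest gene of the list lay at 0.38 in D7E and 0.26 in WTD.

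Other genes that share the glucose-responsive factors were read as well. Txnip and Arrdc4 were picked for falling, so that a list lies nearer to 0 than they do follows from that choice. Of 24 known MondoA or ChREBP targets 14 were tested and 0 were called in D7E or WTD against WTA by limma (1 and 4 had an unadjusted p under 0.05). Their median was 0.02 in D7E and -0.11 in WTD, with 6 and 10 of 14 below 0 and no gene above 0.35 in D7E or 0.17 in WTD. Scd1, a fatty acid desaturase, had the largest difference in both, -0.88 in D7E (adjusted p = 0.110) and -0.88 in WTD (adjusted p = 0.0798). Klf10, a repressor, was detected on both WTA arrays and on 0 arrays of D7E and WTD, so that only a bound can be given there. Khk, which phosphorylates fructose, differed by -0.23 (adjusted p = 0.717) and -0.48 (adjusted p = 0.294), and the lipid elongase Elovl6 by 0.35 (adjusted p = 0.594) and 0.17 (adjusted p = 0.813), in D7E and in WTD. None of the 20 list genes with a promoter in the table held the tandem pair in this window. Only that motif was searched, so response elements spelled otherwise would be missed.

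The genes whose promoters hold the tandem pair number 15, of which 9 passed the filter, Txnip among them. Of the other 8, 0 were called in any comparison (limma; 2 in D7E and 2 in WTD had an unadjusted p under 0.05 against WTA, and 0 in D7E against WTD), and their median was 0.05 in D7E and 0.12 in WTD. Man2b2, a lysosomal mannosidase, stood highest at 0.77 ± 0.25 in D7E (adjusted p = 0.210) and 0.65 ± 0.25 in WTD (adjusted p = 0.250). Rbbp4, a histone-binding chaperone, stood lowest of the 8 at -0.39 ± 0.18 (adjusted p = 0.411) and -0.40 ± 0.18 (adjusted p = 0.343). These 2 genes were chosen after their values were seen.

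Txnip's binding partners were measured too. In the thioredoxin system 16 genes were tested and 0 called in D7E or WTD (limma; 2 and 0 with an unadjusted p under 0.05), with medians of -0.0631 and 0.00493 and a range of -0.49 to 0.66 in D7E and -0.30 to 0.25 in WTD. Txn1, the thioredoxin that Txnip binds, differed by 0.66 in D7E (adjusted p = 0.266) and 0.07 in WTD (adjusted p = 0.934). Txnrd3, a thioredoxin reductase, differed by -0.37 (adjusted p = 0.385) and -0.16 (adjusted p = 0.735), and Msrb1, a methionine sulfoxide reductase, by -0.49 (adjusted p = 0.408) and -0.30 (adjusted p = 0.615).

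Among 14 tested partners and modifiers of the Txnip protein 0 were called (limma; 3 in D7E and 4 in WTD with an unadjusted p under 0.05), and 11 and 12 lay below 0 (median -0.12 in D7E and -0.25 in WTD). Prkaa2, a catalytic subunit of AMPK, the energy sensor that marks Txnip protein for breakdown, differed by -0.60 in D7E (adjusted p = 0.198) and -0.80 in WTD (adjusted p = 0.0609). Prkaa1, the other catalytic subunit, was detected on 0 arrays by its brightest probe and was not tested. Itch, the ubiquitin ligase of Txnip, differed by 0.39 (adjusted p = 0.578) and 0.49 (adjusted p = 0.396), its relative Wwp1 by -0.52 (adjusted p = 0.206) and -0.56 (adjusted p = 0.130), and Ddit4 (REDD1), which binds Txnip, by -0.59 (adjusted p = 0.233) and -0.63 (adjusted p = 0.168).

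Transcription factors known to act on Txnip gave 0 calls among 11 tested genes (limma; 2 in D7E and 3 in WTD with an unadjusted p under 0.05), with medians of -0.03 and 0.10. Ppard, a fatty acid sensor, differed by -0.63 in D7E (adjusted p = 0.118) and -0.58 in WTD (adjusted p = 0.111), Pparg, its relative of fat cells, by -0.59 (adjusted p = 0.261) and -0.82 (adjusted p = 0.0877), and Foxo1, the insulin-restrained factor, by -0.23 (adjusted p = 0.691) and 0.10 (adjusted p = 0.863), with another Foxo1 probe of the opposite sign in D7E. The Nfyb subunit of NF-Y, which binds CCAAT boxes, differed by 0.34 (adjusted p = 0.589) and 0.17 (adjusted p = 0.797). In the network of Mlx, Max and Myc, whose proteins pair with one another, 6 genes were tested and 0 called in any comparison (limma; 0 with an unadjusted p under 0.05), with medians of 0.04 in D7E and 0.15 in WTD. Myc differed by 0.29 (adjusted p = 0.598) and 0.20 (adjusted p = 0.702), but it was detected on 0 WTA arrays, so WTA has only a bound. Mxd4, a repressor of the network, differed by 0.12 (adjusted p = 0.841) and 0.30 (adjusted p = 0.437), with 1 of its other 2 probes of the opposite sign. Of the other alpha-arrestins only Arrdc1 was tested, at -0.43 ± 0.24 in D7E (adjusted p = 0.511) and -0.21 ± 0.24 in WTD (adjusted p = 0.763). In D7E against WTD 0 genes of the 8 lists were called (limma; 2 had an unadjusted p under 0.05), and their differences ran from -0.33 to 0.59.

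**Figure D3:**
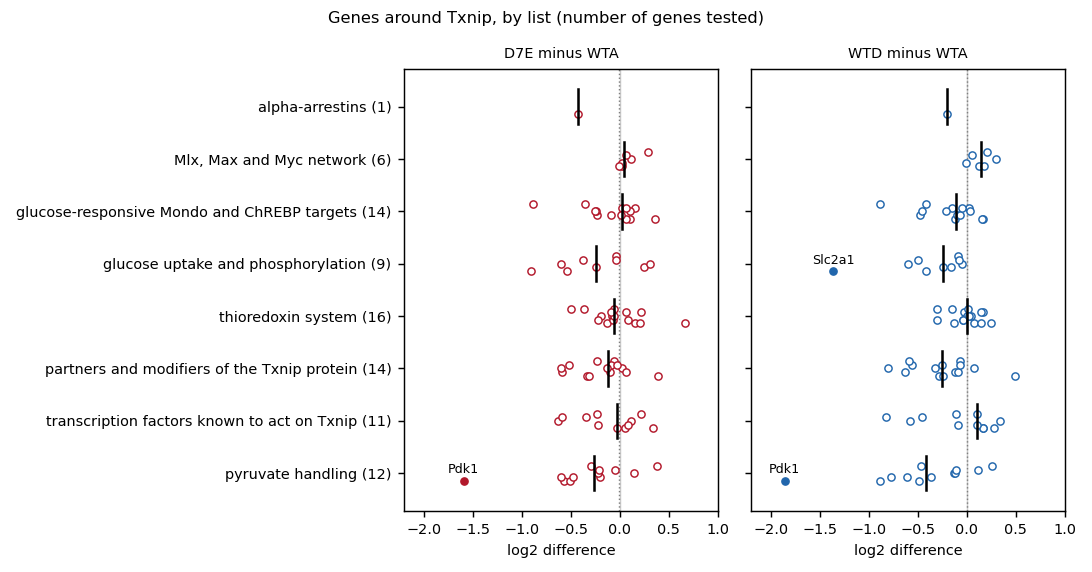
Log2 difference of every tested list gene, D7E minus WTA in the left panel and WTD minus WTA in the right. Filled points passed the limma threshold (Pdk1 in both, Slc2a1 in WTD), open points did not, black bars are list medians and the dotted line is the median of all 10806 genes.

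The genes whose pattern over the 8 arrays was closest to that of Txnip were found by the root mean square difference of log2 levels, each taken relative to its own mean, among 10537 genes. The second Txnip probe lay at 0.26. Nearest were Mybpc2, the fast form of myosin-binding protein C (0.28), Lmcd1, a LIM-domain cofactor (0.29), the tight junction gene Cldn2 (0.31), the lipoprotein receptor Vldlr (0.33), the phosphatase gene Dupd1 (0.34), Pfkl, the liver-type phosphofructokinase of glycolysis (0.35), the serine protease gene Htra3 (0.35) and the mitochondrial adenylate kinase Ak4 (0.39). Arrdc4 stood at place 13, at 0.42. All 8 were, like Txnip, highest within D7E on replicate 3 (Dupd1 there at background), though the search over the same arrays favours such a match. The levels of Pfkl, for example, were 9.43, 9.46 and 10.56 in D7E, 9.18, 9.40 and 9.34 in WTD and 10.88 and 10.86 in WTA.

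For Arrdc4 the nearest were Vldlr (0.15), the mitochondrial creatine kinase Ckmt2 (0.19), the lipoxygenase Alox5 (0.19), Dupd1 (0.20), the formin Fmn2 (0.20), the sugar-phosphate exchanger Slc37a2 (0.22), the stress factor Atf3 (0.22) and the matrix protease Mmp3 (0.22). From Arrdc4, the brighter Txnip probe was at place 422 (0.42) and the second at place 80 (0.34) of the 10537. The distance between Arrdc4 and the brighter probe is the same both ways. Levels were centred but not scaled, so a distance follows the size of a difference as well as its pattern. The place also depends on how many genes lie near. Vldlr, on 2 different probes, was near to both members. The Vldlr probe nearest to Arrdc4 had levels of 8.44, 8.36 and 8.62 in D7E, 8.70, 8.26 and 8.68 in WTD and 9.92 and 9.96 in WTA, so that within WTD both were lowest on replicate 2. Dupd1, listed near both members, and Fmn2 were detected on both WTA arrays and on 0 arrays of D7E and WTD, so their distances rest on 6 values at background and give no exact likeness. These likenesses are descriptions over 8 arrays that share 1 normalization, and each of these genes, like both members, is highest on the same 2 WTA arrays.

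**Figure D4:**
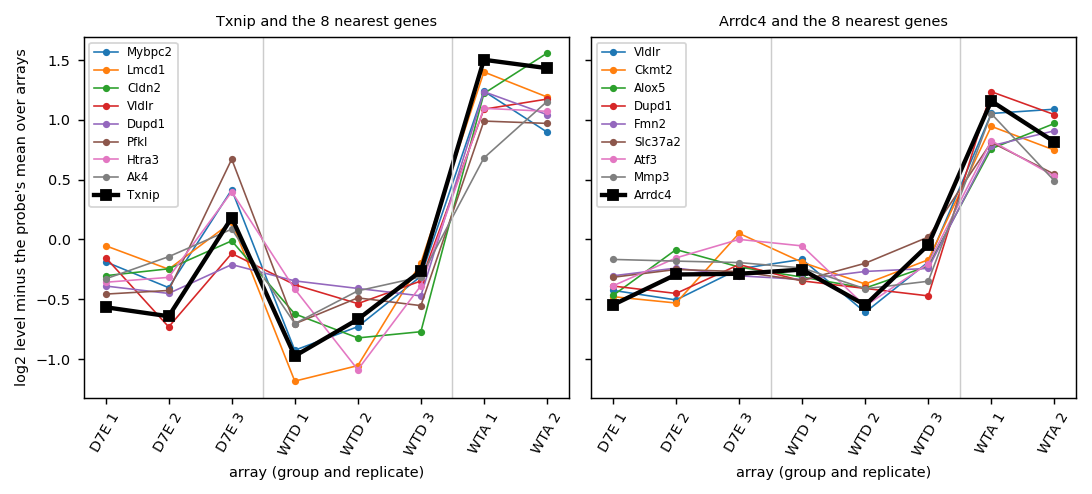
Log2 level minus the probe's mean over the 8 arrays for Txnip (left, black squares) and Arrdc4 (right, black squares) with the 8 nearest genes of each, by array. Lines join the values of 1 gene and imply no order of replicates; all curves are highest on the 2 WTA arrays, and Txnip is higher on D7E replicate 3 than on the other D7E arrays.

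How far single arrays carry the Txnip and Arrdc4 values was read by leaving out each in turn. The Txnip difference lay between -2.07 and -1.66 in D7E and between -2.29 and -1.93 in WTD, and that of Arrdc4 between -1.53 and -1.19 in D7E and between -1.44 and -1.10 in WTD. With WTD replicate 2 as the only WTD array, the 1 whose deposited detection p follows its signals, Txnip was at -2.14 and Arrdc4 at -1.54. With each array centred on its median, a choice that moves the median of all probes by 0.26 in D7E against WTA, Txnip in D7E was at -1.28, or -1.54 relative to that median. Without D7E replicate 3 the D7E against WTD difference of Txnip was 0.03.

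**Figure D5:**
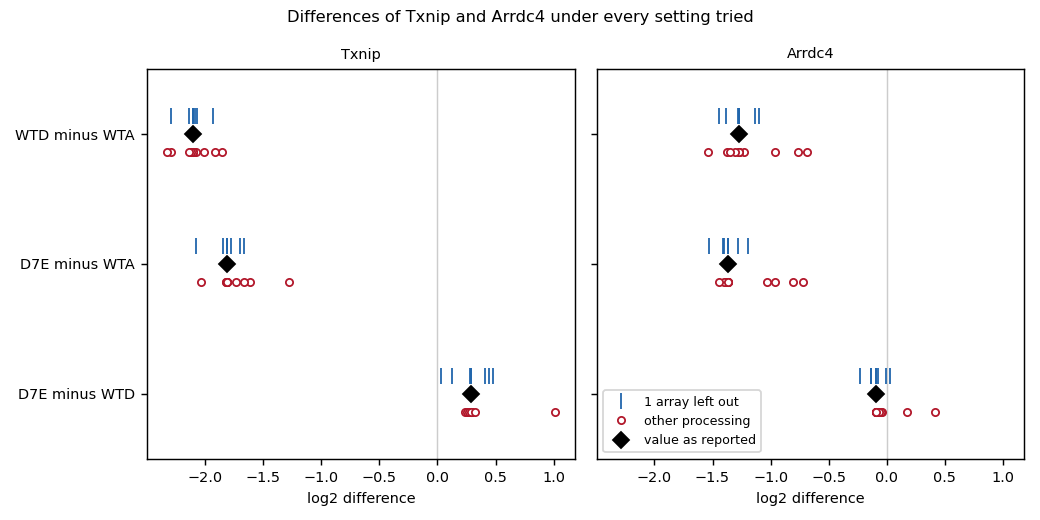
Log2 difference of Txnip (left) and Arrdc4 (right) in each comparison, as reported (diamond), with 1 array left out (ticks above) and under other processing (open circles below). All values against WTA, the direction both genes were picked for, are below 0. Those of D7E minus WTD lie on both sides of 0 for Arrdc4 and between 0.03 and 1.02 for Txnip.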

How the data were processed

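Per the file headers, the raw tables hold non-normalized signal intensities (linear), and the authors deposited a detection p-value beside each. The authors' deposited normalized values are log2 intensities, quantile normalized per their values. No source used here names the scanner software or a genome build. The WTD columns stood in another row order. It was restored by matching the pair of WTA ranks (45281 of 45281 probes, 0 in place), after which rank correlations of WTD with WTA signals were 0.725 to 0.789, against -0.00787 to 0.0025 before. The deposited detection p of WTD replicates 1 and 3 did not follow their signals (rank correlation -0.714 and -0.711, against -0.996 for replicate 2). For these 2 arrays it was estimated from 23132 background probes, a way that gave the same call for 97.3% to 98.8% of probes on the other 6 arrays, with 535 to 1222 more probes called detected on each.

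All 8 arrays were normalized together with neqc (limma 3.58.1, R 4.3.3, offset 16) and tested in 1 three-group fit (lmFit, eBayes, two-sided, 5 residual degrees of freedom), with Benjamini-Hochberg adjustment over 18815 probes and a threshold of 0.05. Against WTA this gave 107 called probes in D7E and 269 in WTD. The fit was also run on simulated data with independent noise for each probe and array. Such data hold no clone or culture effect and no restored row order, so they say nothing about those limits. The members, the 13 lists and the tests were chosen with earlier results of these data known. Named are all member probes, the 8 genes nearest to Txnip and to Arrdc4, list genes called in a comparison and others from the 3 with the smallest p, and Pabpn1, with Itch and Nfyb added for their roles. Symbols came from the platform annotation (34885 probes with 1 symbol, 18 with several, 10378 with none). A WTA replicate 3 was not analysed here. Slides and scan dates are in no header, so no batch was tested.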

Additional observations from a re-analysis of the deposited data

How the results depend on the processing

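The limits are few arrays, 2 of them WTA, a restored row order and dim probes for the regulators. Of the alternatives, 1 was chosen after seeing the data (WTD replicate 2 as the only WTD array). Txnip and Arrdc4 were picked for falling against WTA, and kept that direction under every alternative run. The alternatives reuse the same arrays, so the choice favours this outcome. A change of filter, a fit of the 2 groups only or leaving out an array of the third group cannot move the difference at all. In D7E against WTA Arrdc4 was at -0.7257 with quantile normalization without background correction, -0.8094 in the authors' values, -1.028 with an offset of 50 and -0.9582 with arrays centred on their medians, where Txnip was at -1.28. In WTD against WTA Arrdc4 was at -0.6834, -0.7613 and -0.9629 with the first 3 of these, and -1.536 with WTD replicate 2 alone. A higher offset and values that keep background shrink differences by construction. In D7E against WTD Arrdc4 turned to 0.4181 with median centring and 0.173 with WTD replicate 2 alone, and ran from -0.227 to 0.02451 with 1 array left out. Mlxip in D7E against WTA turned to 0.2274 with median centring. With 1 array left out it ran from -0.3528 to 0.008665, and from -0.009499 to 0.3223 against WTD. Mlxipl in WTD against WTA ran from -0.3065 to 0.1648, with 0.2098 for WTD replicate 2 alone. The cause of these turns was not tested, and none of the turned values passed the threshold.

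Called probes in D7E against WTA were 107 and became 271 without background correction, 276 in the authors' values, 198 with an offset of 50, 71 within the raw table, 59 without a filter, 52 with the replicate number as a block and 0 with median centring (1094 at an unadjusted p under 0.05). They ran from 0 (without WTA replicate 1) to 189 (without D7E replicate 3) with 1 array left out. In WTD against WTA the 269 became 144 in a fit of the 2 groups only, 62 without a filter and 0 with median centring (317 unadjusted), and ran from 2 (without WTA replicate 1) to 395. In D7E against WTD the 5 became 2 without background correction and in the authors' values, 1 with a stricter filter, and 0 with median centring, the 2-group fit, no filter, deposited detection p-values and an offset of 50. With WTD replicate 2 alone they were 89, and with 1 array left out from 0 to 72 (without WTD replicate 3). The labels do not say whether the replicate numbers pair the arrays. Deviations of same-numbered arrays correlated between -0.275 and 0.150, which cannot settle it, since deviations within so small a group cancel by construction. With the replicate block Txnip was at -2.034 in D7E and -2.328 in WTD against WTA.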
